A study of Mus musculus with 16 samples.

Results

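Interferon-stimulated genes were followed in mouse embryonic fibroblasts (MEF) with and without the transcription factor CHOP. The genes were chosen by symbol as Ifit1, Ifit2, Ifit3, Isg15, Stat2, Irf1, Irf7, Irf9 and Bst2, and a gene was taken as measured where a probe set of the array names that gene alone. This gave 9 probe sets of 8 genes, of 34945 single-gene probe sets of 18193 genes in all. Stat2 has 2 probe sets and the other genes 1 each. The 1 probe set that lists Isg15 also names Gm9706, so Isg15 has no value of its own here. Cells were wild-type (CHOP+/+) or CHOP-/-, and each genotype was either untreated or exposed for 8 hours to 1 µM MG132, which blocks the proteasome. With 4 plates a group and 1 array a plate, there were 16 arrays. The labels of the untreated plates conflict: the treatment field says none, and the sample descriptions name DMSO, the solvent. They give neither the structure of the CHOP-/- allele nor how many embryos or isolates the plates came from, so the tests measure the spread between plates, which may be technical.

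Interferons are secreted alarm proteins. Type I interferon binds the receptor formed by IFNAR1 and IFNAR2, the kinases JAK1 and TYK2 phosphorylate STAT2, and STAT2 joins IRF9 in a complex that binds the interferon-stimulated response element (ISRE) of target genes. IFIT proteins bind foreign RNA and limit its translation, BST2 (tetherin) holds budding virus at the cell surface, IRF7 drives the transcription of interferon genes, and IRF1 is induced through GAS elements by interferon gamma and also through NF-kB. Fibroblasts are a classic responder cell, and many of these genes have low basal levels without infection.

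The promoter windows are shown first, searched for the elements that name the pathway. RefSeq windows (GRCm38.p6, 250 bases before to 50 after a transcription start) were found for all 9 symbols, 12 windows in total. The searched motifs were GAAA, any 2 bases and GAAA for the ISRE, and TTC, any 3 bases and GAA for GAS, on both strands, and overlapping matches were counted separately. An ISRE match lay in the windows of 5 of the 9 genes, Ifit1, Ifit3, Isg15, Stat2 and Bst2, and in 3.44% of all 32851 windows of that length. A GAS match lay in windows of 3 genes, Ifit2, Irf1 and Bst2, and in 8.3% of all windows. Neither motif matched in the windows of Irf7 and Irf9. A match is a description of the letters and not evidence of a bound site. A window without a match does not show that the gene lacks the element, since only these letters in these windows were searched. Shown are the 250 bases before the start of 5 genes, 5′ to 3′ in the direction of the gene, with the matches in capitals. All matches of these windows lie in that stretch.
Ifit1, chr19:34640639-34640888, plus strand, 2 ISRE matches: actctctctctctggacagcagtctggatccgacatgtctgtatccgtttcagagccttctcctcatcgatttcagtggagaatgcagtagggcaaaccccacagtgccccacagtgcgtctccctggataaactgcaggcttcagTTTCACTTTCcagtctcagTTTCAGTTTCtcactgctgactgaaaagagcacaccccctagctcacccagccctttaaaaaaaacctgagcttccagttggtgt
Ifit3, chr19:34583279-34583528, plus strand, 2 ISRE matches: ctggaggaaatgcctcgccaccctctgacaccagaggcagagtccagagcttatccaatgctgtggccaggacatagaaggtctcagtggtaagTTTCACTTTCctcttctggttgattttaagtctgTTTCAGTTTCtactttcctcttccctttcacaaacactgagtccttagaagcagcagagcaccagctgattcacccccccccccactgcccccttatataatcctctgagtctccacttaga
Stat2, chr10:128270248-128270497, plus strand, 1 ISRE match: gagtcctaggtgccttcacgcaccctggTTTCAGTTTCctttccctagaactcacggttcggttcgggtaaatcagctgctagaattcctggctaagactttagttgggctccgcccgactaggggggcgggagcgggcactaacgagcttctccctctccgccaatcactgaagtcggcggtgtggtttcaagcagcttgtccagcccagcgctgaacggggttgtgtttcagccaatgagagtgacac
Bst2, chr8:71537473-71537722, minus strand, 2 ISRE matches and 1 GAS match that run into each other: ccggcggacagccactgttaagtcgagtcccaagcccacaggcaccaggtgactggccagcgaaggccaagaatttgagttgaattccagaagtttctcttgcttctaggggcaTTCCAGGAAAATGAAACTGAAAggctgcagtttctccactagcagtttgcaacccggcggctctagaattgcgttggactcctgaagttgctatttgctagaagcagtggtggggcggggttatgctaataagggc
Irf1, chr11:53769764-53770013, plus strand, the first of 2 windows, 1 GAS match: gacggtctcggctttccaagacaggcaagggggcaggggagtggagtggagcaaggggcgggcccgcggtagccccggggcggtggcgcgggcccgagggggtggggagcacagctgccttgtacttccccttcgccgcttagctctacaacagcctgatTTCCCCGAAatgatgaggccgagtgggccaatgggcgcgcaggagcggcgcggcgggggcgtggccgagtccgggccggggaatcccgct
Ifit1 and Ifit3 carry the same pair of 10-base ISRE matches, TTTCACTTTC followed by TTTCAGTTTC, and the latter also stands in the window of Stat2. Both RefSeq windows of Ifit2 held 0 ISRE matches, and 1 of them held a GAS match 241 to 233 bases before the start.

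The arrays were of even quality within groups. Log2 values of arrays of 1 group correlated at 0.976 to 0.983 over all probe sets, and the array median lay between 89.8 and 113. The 3' to 5' ratio of the Actb control probe sets was 1.11 to 1.19 on untreated and 1.19 to 1.27 on treated wild-type arrays, and 1.14 to 1.16 without and 1.19 to 1.23 with it in CHOP-/- cells, so it was higher with MG132, and its part in the results was not tested. The Gapdh ratio overlapped between treated and untreated arrays, at 0.805 to 0.877 against 0.833 to 0.875 in wild-type and 0.790 to 0.840 against 0.825 to 0.839 in CHOP-/- cells. Ddit3, which encodes CHOP, had a signal of 1017 ± 101 (SD, n = 4) on untreated wild-type arrays, against 7724 ± 587 after MG132. On CHOP-/- arrays it was 368 ± 24.0 and 396 ± 38.9. Some of the 10 fibroblast markers differed between the genotypes. Pdgfra averaged 2351 in untreated wild-type and 118 in untreated CHOP-/- cells, Thy1 227 and 2727, and Dcn 38.5 and 1075. Pdgfrb averaged 6439 and 2534, Col1a1 19282 and 10951, and Col3a1 3056 and 7140. Vim (46535 and 48075), Col1a2 (26267 and 27691) and Fn1 (17439 and 19821) were closer, and Lum was above the array median on 0 arrays. The summed signal of the 10 averaged 121671 and 120182 without MG132, and 116695 and 100078 with it. Of 11 macrophage and leukocyte markers 10 were measured. Their summed signal ran from 805 to 946 without MG132 and from 942 to 1187 with it on wild-type arrays. On CHOP-/- arrays it ran from 1514 to 1796 and from 2301 to 2489. Most of that difference lay in Cd14, at 310 and 264 in wild-type and 1054 and 1736 in CHOP-/- cells, while Csf1r, at 200 to 321 over the 4 group means and above the array median on 16 arrays, and Cd68, at 121 to 217 and on 15, were measured in both genotypes. Adgre1 was above the median on 2 arrays, and the other 6, with Ptprc at 20.5 to 29.7, on 0. The part of these differences in the genotype comparisons was not tested.

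**Figure D1:**
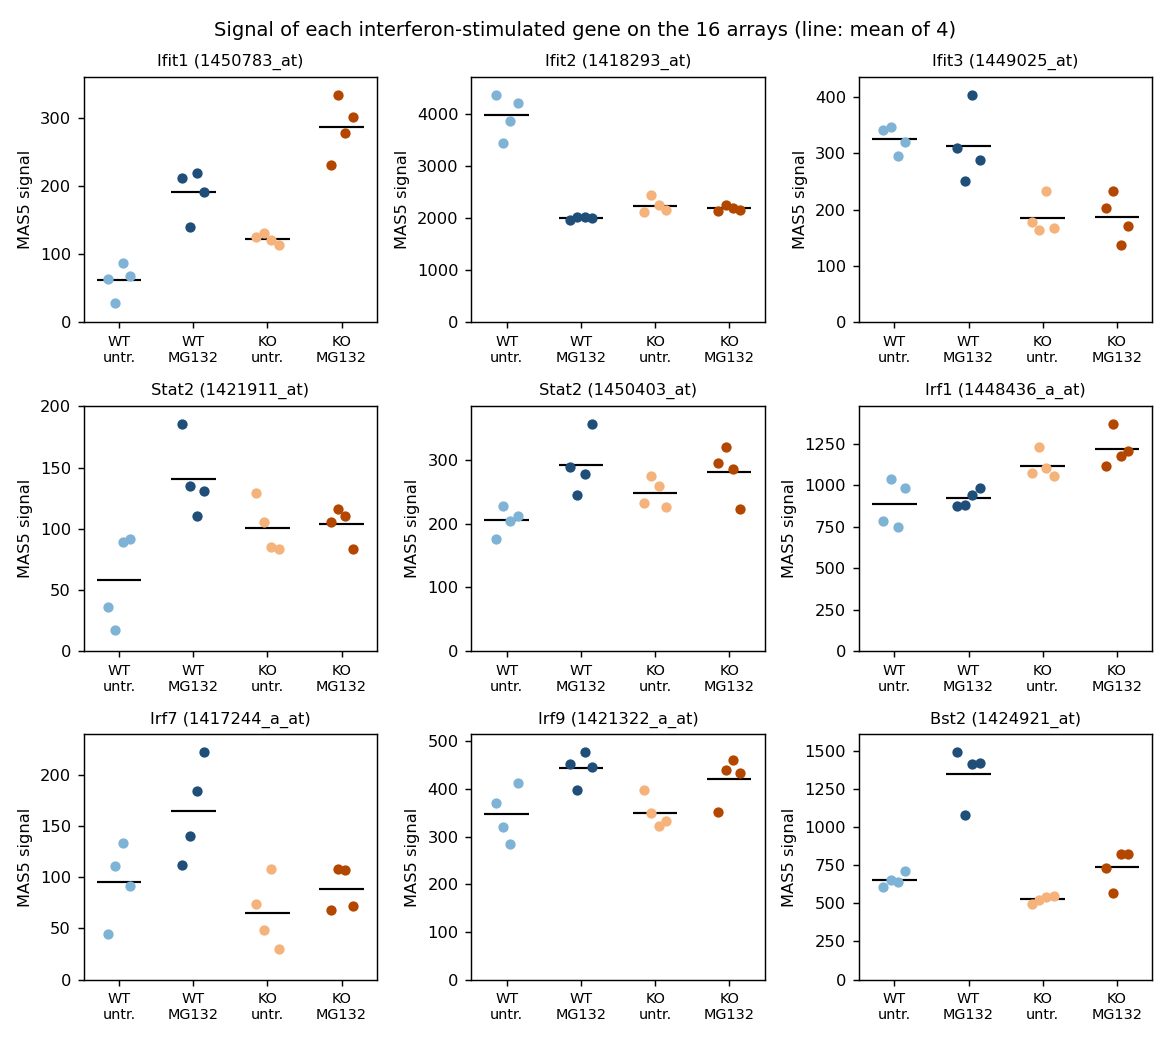
MAS5 signal (y axis, linear, from 0) of the 9 probe sets in the 4 groups (x axis). Each point is an array and each line the mean of 4. Ifit2 was high only in the 4 untreated wild-type arrays, at 3454 to 4367, and Ifit1 was lowest there, at 28.4 to 87.4.

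All 8 measured genes were tested. Signals were compared as log2(signal + 16) with limma over 11465 genes, with Benjamini-Hochberg adjustment over all of them, and "rose", "fell", "higher" and "lower" mean an adjusted p under 0.05. Log2 changes understate the change of genes with low signals. Much of the transcriptome moved: with MG132 27.1% of all tested genes rose and 36.9% fell in wild-type cells, and 25.7% rose and 36.7% fell in CHOP-/- cells. Treated and untreated arrays did not overlap for 56.6% and 58.3% of all genes. Against this background 5 of the 8 genes passed in wild-type cells, with Ifit1, Bst2, Stat2 and Irf9 rising and Ifit2 falling, and 4 of 8 did not overlap (all of these but Irf9). Among CHOP-/- arrays 2 of 8 passed and the same 2, Ifit1 and Bst2, did not overlap, and both rose. The median log2 change of the 8 genes was 0.41 in wild-type and 0.21 in CHOP-/- cells, beside -0.07 over all genes in each. Responses differed between the genotypes for Ifit2, with a higher value in CHOP-/- cells, and for Bst2, with a lower one, where 14.1% of all genes differed in each direction. MG132 thus did not move these genes as 1 block: the 3 IFIT genes rose, fell and did not pass.

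**Figure D2:**
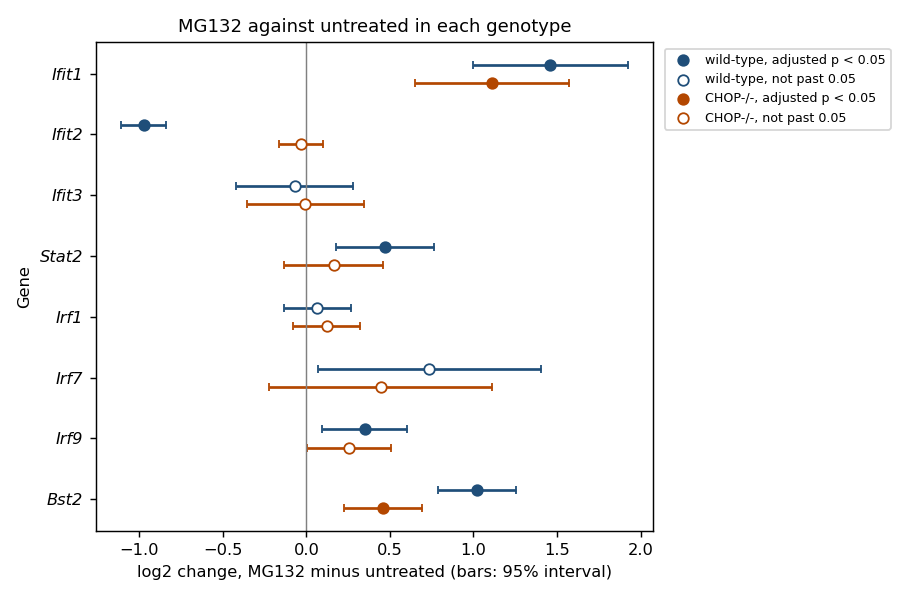
Log2 change with MG132 (x axis) of the 8 tested genes (y axis) in wild-type and CHOP-/- cells, with 95% intervals from limma. Filled points passed an adjusted p of 0.05. Ifit1 and Bst2 rose in both genotypes, and Ifit2 fell in wild-type cells and stayed near 0 in CHOP-/- cells.

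Ifit2, an RNA-binding IFIT protein that is also linked to apoptosis, showed the sharpest genotype dependence. In untreated wild-type cells its signals were 4367, 3454, 3877 and 4218. After MG132 they were 1966, 2032, 2028 and 2010, so that every treated array lay below every untreated one. In CHOP-/- cells the signals were 2114, 2439, 2263 and 2152 without MG132 and 2140, 2259, 2196 and 2159 with it. These 2 groups overlapped throughout and lay slightly above the treated wild-type arrays. The wild-type change was -0.97 (SE 0.06, limma adjusted p = 4.75e-11), and the CHOP-/- change was -0.03 (95% interval -0.17 to 0.10, adjusted p = 0.682). Between the genotypes the response differed by 0.94 (SE 0.09, adjusted p = 2.25e-07). Untreated CHOP-/- cells were lower than untreated wild-type cells by a log2 difference of -0.82 (SE 0.06, adjusted p = 9.39e-10). With MG132 the difference was 0.12 (SE 0.06), with no overlap between the groups, and it did not pass (adjusted p = 0.110). It did when only those 2 groups were fitted (adjusted p = 0.0498). Untreated wild-type arrays stood above the other 3 groups, which lay between 1966 and 2439.

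Ifit1, which recognises RNA that lacks the methylated cap of the host, went the other way. On wild-type arrays the signals were 63.1, 28.4, 87.4 and 67.4 without and 211, 140, 219 and 191 with MG132. On CHOP-/- arrays they were 125, 131, 120 and 114 without and 230, 333, 278 and 301 with MG132. Treated arrays lay above untreated ones in both genotypes, and CHOP-/- arrays lay above wild-type arrays at both treatments. The changes with MG132 were 1.46 (SE 0.22, limma adjusted p = 8.06e-06) and 1.11 (SE 0.22, adjusted p = 0.000198), and they did not differ detectably (difference -0.35, 95% interval -1.0 to 0.31, adjusted p = 0.449). CHOP-/- cells were higher than wild-type cells by 0.90 (SE 0.22, adjusted p = 0.00175) without MG132. With it the difference was 0.55 (SE 0.22, adjusted p = 0.0388). The latter call was lost without replicate 2 (0.42, adjusted p = 0.133) or replicate 4 (0.56, adjusted p = 0.0618) of the treated wild-type arrays, and without replicate 2 (0.48, adjusted p = 0.106), 3 (0.56, adjusted p = 0.0625) or 4 (0.52, adjusted p = 0.0819) of the treated CHOP-/- arrays. All 4 untreated wild-type arrays lay below the array median at Ifit1, and the other 12 lay above it.

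Ifit3, another gene of the IFIT family, followed the genotype and not the treatment. Wild-type signals were 341, 347, 295 and 320 without and 310, 251, 403 and 289 with MG132. CHOP-/- signals were 178, 164, 233 and 167 without and 203, 233, 137 and 171 with MG132. All 8 CHOP-/- arrays lay below all 8 wild-type arrays, and the treated and untreated arrays overlapped in each genotype. The genotype difference was -0.77 (SE 0.17, limma adjusted p = 0.000532) without and -0.71 (SE 0.17, adjusted p = 0.00106) with MG132. The response was -0.07 (95% interval -0.42 to 0.28, adjusted p = 0.729) in wild-type and -0.01 (95% interval -0.35 to 0.34, adjusted p = 0.977) in CHOP-/- cells. The mouse genome holds a close copy, Ifit3b, with no probe set of its own name here, and the values of Ifit3 may include its transcripts.

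Bst2, the membrane tether that retains virus particles, rose in both genotypes and more in wild-type cells. Without MG132 the wild-type signals were 608, 654, 641 and 713, and with it 1490, 1080, 1416 and 1419. The CHOP-/- signals were 497, 519, 542 and 549 without and 732, 567, 825 and 826 with MG132. Treated and untreated arrays did not overlap in either genotype, and all treated wild-type arrays lay above every other array. The change was 1.02 (SE 0.11, limma adjusted p = 1.04e-07) in wild-type and 0.46 (SE 0.11, adjusted p = 0.00134) in CHOP-/- cells. The CHOP-/- response was lower by a log2 difference of -0.56 (SE 0.16, adjusted p = 0.0114). When arrays were centred on the median of all their probe sets, that difference was -0.47 and did not pass (adjusted p = 0.0591). CHOP-/- cells were lower with MG132, by -0.86 (SE 0.11, adjusted p = 1.40e-06). Without it the difference was -0.30 (SE 0.11, adjusted p = 0.0276), and this call was lost without replicate 4 of wild-type (-0.26, adjusted p = 0.0819) or replicate 1 (-0.28, adjusted p = 0.0683) or 2 (-0.30, adjusted p = 0.0524) of CHOP-/- untreated arrays, and under centring on the tested genes (-0.23, adjusted p = 0.0938).

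Among the signalling subunits, Stat2 and Irf9 both rose in wild-type cells. Stat2, the STAT protein particular to type I and type III interferon signalling, gave 205 ± 21.7, 292 ± 47.2, 248 ± 22.7 and 281 ± 41.2 (SD, n = 4) at probe set 1450403_at in untreated and treated wild-type and untreated and treated CHOP-/- cells. All treated wild-type arrays lay above the untreated ones, and the CHOP-/- groups overlapped. The change was 0.47 (SE 0.14, limma adjusted p = 0.00656) in wild-type and 0.16 (SE 0.14, adjusted p = 0.335) in CHOP-/- cells, where it passed under quantile normalisation (0.31, adjusted p = 0.0490). The responses did not differ detectably (-0.31, 95% interval -0.73 to 0.11, adjusted p = 0.275). The dimmer probe set 1421911_at gave 58.4 ± 37.5, 140 ± 32.2, 101 ± 21.1 and 104 ± 14.4 in the same order. Tested among all single-gene probe sets it rose by 1.21 (SE 0.31, adjusted p = 0.00203) in wild-type cells. Its change in CHOP-/- cells was 0.04 (SE 0.31), and the difference of -1.17 (SE 0.43) had an adjusted p of 0.0561. With the mean of both probe sets the difference was -0.74 and passed (adjusted p = 0.0387), so that the call for the difference at Stat2 rests on the choice of probe set. The same holds between untreated genotypes, where the change was 0.26 at the main probe set (adjusted p = 0.133) and 0.53 for the mean of both (adjusted p = 0.0178).

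Irf9, the DNA-binding subunit of that complex, averaged 347 ± 56.0 (SD, n = 4) on untreated wild-type arrays and 443 ± 33.2 on treated ones. The CHOP-/- means were 350 ± 33.3 and 422 ± 47.8. It rose by 0.35 (SE 0.12, limma adjusted p = 0.0164) in wild-type cells. The change of 0.25 (SE 0.12) in CHOP-/- cells had an adjusted p of 0.0748, which was 0.00501 under quantile normalisation. The ranges overlapped in both genotypes, at 285 to 412 against 397 to 477 in wild-type and 322 to 397 against 352 to 462 in CHOP-/- cells. The wild-type call was lost without replicate 3 of the untreated arrays (0.26, adjusted p = 0.0677) and when arrays were centred on the median of all probe sets (0.30, adjusted p = 0.0660).

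Both other IRF factors took separate courses. Irf1, an activator that is itself an early target gene, was higher in CHOP-/- cells. Signals on wild-type arrays were 784, 1036, 747 and 982 without MG132, and 875, 884, 944 and 984 after it. Those on CHOP-/- arrays were 1074, 1234, 1104 and 1058 without and 1116, 1372, 1174 and 1208 with MG132. All 8 CHOP-/- arrays lay above all 8 wild-type arrays. The genotype difference was 0.34 (SE 0.10, limma adjusted p = 0.00540) without and 0.39 (SE 0.10, adjusted p = 0.00149) with MG132. The responses were 0.07 (95% interval -0.14 to 0.27, adjusted p = 0.574) and 0.12 (95% interval -0.08 to 0.32, adjusted p = 0.289), and both passed, at 0.27 in each genotype, when arrays were centred on the median of the tested genes.

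Irf7, the amplifier of interferon transcription, was near the array median and noisy. It gave 95.1 ± 37.8 and 165 ± 48.4 in wild-type cells and 64.9 ± 33.8 and 88.7 ± 21.5 in CHOP-/- cells (SD, n = 4), without and with MG132. Only 9 of the 16 arrays were above their median at this probe set. The wild-type change of 0.74 (SE 0.32) missed the threshold narrowly (limma adjusted p = 0.0503) and passed under quantile normalisation (0.68, adjusted p = 0.0483), among other settings, and that in CHOP-/- cells was 0.45 (SE 0.32, adjusted p = 0.236). With MG132 the 4 CHOP-/- arrays, at 68.3 to 108, lay below the 4 wild-type arrays, at 112 to 222. That difference was -0.77 (SE 0.32, adjusted p = 0.0447), and its adjusted p rose to 0.0515 to 0.135 without replicate 2, 3 or 4 of treated wild-type, replicate 1 or 4 of treated CHOP-/- or replicate 4 of untreated wild-type arrays. The call was also lost with an added constant of 1, without a filter, under both median centrings and without the mean-variance trend (adjusted p = 0.0518 to 0.0752).

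**Figure D3:**
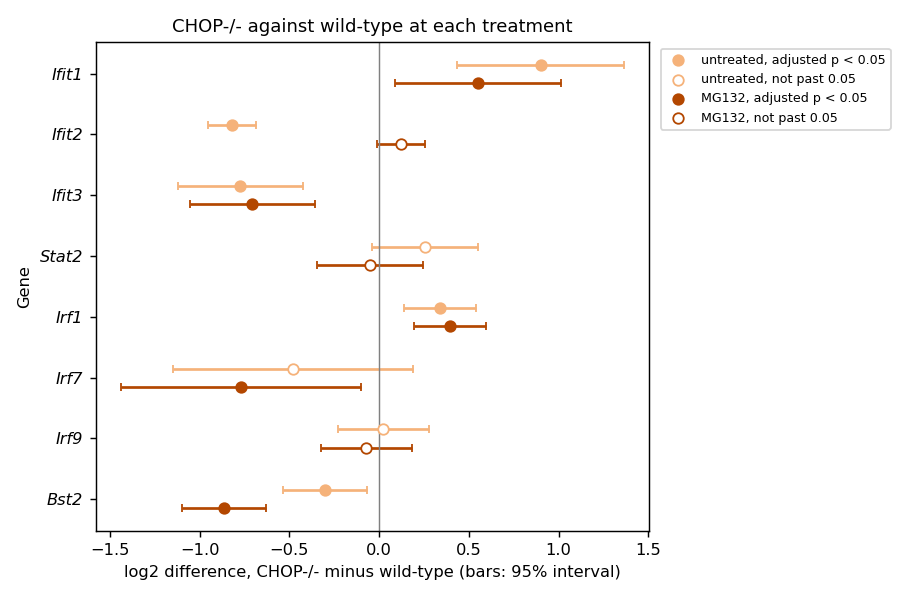
Log2 difference between CHOP-/- and wild-type cells (x axis) for the 8 tested genes (y axis), without and with MG132, with 95% intervals from limma. Filled points passed an adjusted p of 0.05. Ifit1 and Irf1 were higher and Ifit3 and Bst2 lower in CHOP-/- cells at both treatments.

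Between the genotypes, 5 of the 8 genes differed without MG132, Ifit1 and Irf1 higher and Ifit2, Ifit3 and Bst2 lower in CHOP-/- cells. Of all genes 28.6% were higher and 26.9% lower, and for 49.7% the genotypes did not overlap, as they did not for the same 5 genes. With MG132 5 of the 8 differed again, Ifit1 and Irf1 higher and Ifit3, Irf7 and Bst2 lower, beside 30.7% of all genes higher and 28.0% lower. For these 5 and Ifit2 the genotypes did not overlap, as for 53.3% of all genes. The median log2 difference of the 8 genes was -0.14 without and -0.06 with MG132, beside 0.01 and 0.02 over all genes. These comparisons share arrays with those of the MG132 responses.

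Position along the genome offered a further view that the choice of genes did not use, and it was added after values were seen. Ifit2, Ifit3 and Ifit1 lie in that order in the RefSeq annotation, with Ifit1bl1, Ifit3b and Ifit1bl2, all of the IFIT family, between Ifit3 and Ifit1. The mean signal of Ifit1bl1 went from 243 to 96.8 with MG132 in wild-type cells and was 65.3 and 62.8 in CHOP-/- cells. It was above the array median on 4 of 4 untreated and 1 of 4 treated wild-type arrays and on 0 of the 8 CHOP-/- arrays. It passed the filter through the untreated wild-type group, and a fall could hardly show in CHOP-/- cells, so its values are given as a description and no test of it is read. Ifit1bl2 did not pass the filter on low signals. Its mean signal was 95.4 and 31.5 in wild-type and 37.8 and 44.5 in CHOP-/- cells. Of the genes before the cluster, Ch25h, which encodes cholesterol 25-hydroxylase, averaged 43.9 and 106 in wild-type and 85.1 and 91.7 in CHOP-/- cells. It was above the array median on 0 of 4 untreated and 2 of 4 treated wild-type arrays, and on 1 and 2 CHOP-/- arrays. Its fits below are limited by these low signals. The change of Ch25h was 1.11 (limma adjusted p = 0.00210) in wild-type and 0.08 (adjusted p = 0.834) in CHOP-/- cells, and the difference of -1.04 did not pass (adjusted p = 0.0636). The lipase gene Lipa did not pass in either genotype, at -0.07 and -0.05 (adjusted p = 0.432 and 0.553). Fas, the death receptor 3 genes before Ifit2, rose by 1.03 (adjusted p = 0.000343) and 1.38 (adjusted p = 1.41e-05). Some genes outside the IFIT family also differed in response along this stretch, Acta2 by 0.55 (limma adjusted p = 7.76e-05), Kif20b by 0.49 (adjusted p = 0.0132) and Rpp30 by 0.19 (adjusted p = 0.0418). The differences of Fas (0.35, adjusted p = 0.435), Lipa (0.01, adjusted p = 0.932), Pank1 (0.25, adjusted p = 0.379) and Ch25h did not pass. Of all genes 14.1% differed in each direction.

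**Figure D4:**
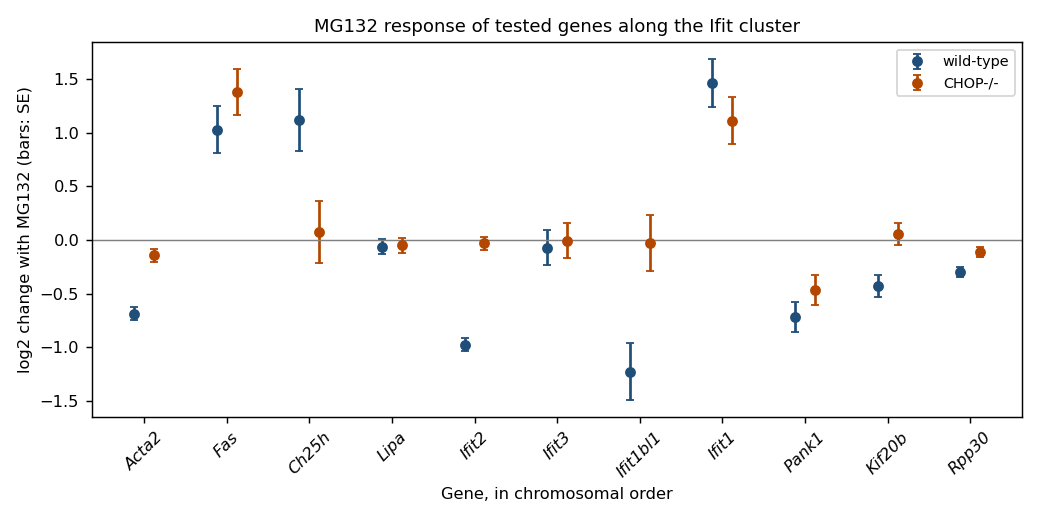
Log2 change with MG132 (y axis, bars SE) of the tested protein-coding genes from Acta2 to Rpp30 in chromosomal order (x axis), in wild-type and CHOP-/- cells. Ifit2 lay at -0.97 in wild-type and -0.03 in CHOP-/- cells, and Ifit1 lay above 1 in both. Ifit1bl1 was below the array median on all CHOP-/- arrays.

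The genes nearest in pattern over the 16 arrays were taken by the highest Pearson correlation of log2 signals, as a description without a test, since the arrays of a group share its level. For Ifit2 these were Iqgap3 (0.976), Zfp579 (0.964) and Slc39a13 (0.960), each high in untreated wild-type cells and low in the other groups. Zfp579, for instance, averaged 848 there, 197 after MG132, and 245 and 207 in the CHOP-/- groups. For Ifit1 they were Zbtb46 (0.958), Afap1l2 (0.957) and Chkb (0.956), for Ifit3 Sh3rf2 (0.938), Plxdc2 (0.919) and Gosr1 (0.915), for Bst2 Wbp4 (0.968), Hspbap1 (0.967) and Lmbrd1 (0.955), and for Irf1 Sfswap (0.906), Vangl2 (0.903) and Mvd (0.899). For Stat2, Irf7 and Irf9 the highest correlations were lower, with Tex19.1 (0.881), Edn2 (0.874) and Aqp11 (0.875). Pairs among the 8 interferon-stimulated genes ran from -0.75 (Ifit1 and Ifit2) to 0.67 (Irf7 and Bst2) over the 16 arrays. Ifit1 correlated at 0.66 with Stat2, 0.65 with Irf9 and -0.43 with Ifit3, and Ifit2 at 0.44 with Ifit3 and -0.72 with Stat2. Deviations from the group means correlated at 0.53 between Ifit1 and Ifit2. The neighbours above were picked as the highest among the tested genes, so these pairs are not set against them.

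The rest of the pathway was described from lists of symbols. Of 10 interferon ligand genes, 6 had a single-gene probe set. Ifnb1, Ifna1, Ifna2, Ifna4 and Ifng stayed at or below a signal of 100.1, 78.9, 19.1, 88.4 and 50.5 on all arrays and did not pass the filter. Ifnz, of the limitin family, averaged 423 and 399 in wild-type and 233 and 142 in CHOP-/- cells. It fell in CHOP-/- cells by -0.65 (SE 0.15, limma adjusted p = 0.00111) and its wild-type change was -0.08.

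Of 8 receptor and kinase genes tested, 1 rose and 3 fell in wild-type cells, and 0 rose and 5 fell in CHOP-/- cells (medians -0.20 and -0.35). When arrays were centred on the median of the tested genes, 2 rose and 2 fell in wild-type cells (median 0.01) and 2 rose and 4 fell in CHOP-/- cells (median -0.21). Beside these and the following counts stand the all-gene shares, 27.1% rising and 36.9% falling in wild-type and 25.7% and 36.7% in CHOP-/- cells. Ifnar1, a subunit of the type I receptor, fell by -0.49 (SE 0.07, limma adjusted p = 3.36e-06) and -0.55 (SE 0.07, adjusted p = 7.66e-07). Its partner Ifnar2 rose in wild-type cells by 0.41 (SE 0.06, adjusted p = 4.95e-06), was at 0.09 in CHOP-/- cells, a difference between responses of -0.32 (SE 0.08, adjusted p = 0.00763). Ifngr2, of the interferon gamma receptor, was at 0.11 in wild-type and fell by -0.48 (SE 0.09, adjusted p = 4.80e-05) in CHOP-/- cells (difference -0.60, adjusted p = 0.000861). The list of other STAT and IRF genes also held Irf2bp1 and Irf2bp2, which encode IRF2-binding proteins and not IRF factors. Of its 9 tested genes, 0 rose and 6 fell in wild-type cells and 2 rose and 3 fell in CHOP-/- cells. Under centring on the tested genes 3 rose and 1 fell in wild-type and 2 rose and 2 fell in CHOP-/- cells. In the main counts Irf2bp1 fell by -0.44 and -0.31. Irf2bp2 fell by -0.28 in wild-type and rose by 0.20 in CHOP-/- cells. Irf3, which activates interferon genes after viral sensing, fell by -0.44 (SE 0.08, adjusted p = 0.000124) in wild-type cells. Stat3 fell by -0.33 (adjusted p = 0.000147) and -0.65 (adjusted p = 2.60e-08).

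Of 8 sensors and adaptors of nucleic acid detection tested, 2 rose and 4 fell in wild-type cells and 2 rose and 3 fell in CHOP-/- cells, and under that centring 2 rose and 3 fell, and 2 rose and 1 fell. The DNA sensor Cgas rose by 0.39 (SE 0.09, limma adjusted p = 0.000656) and 0.40 (SE 0.09, adjusted p = 0.000553). The kinase Tbk1 fell by -0.21 (adjusted p = 0.00202) in wild-type and rose by 0.30 (adjusted p = 7.01e-05) in CHOP-/- cells (difference 0.51, SE 0.08, adjusted p = 5.37e-05). Its wild-type fall is near the size of the shift of 0.20 that centring on the tested genes gave. Of 11 negative regulators of interferon signalling tested, 3 rose and 6 fell in wild-type cells and 2 rose and 5 fell in CHOP-/- cells, and under that centring 4 rose and 6 fell, and 4 rose and 4 fell. Socs2, a suppressor of cytokine signalling, rose by 1.32 (SE 0.09, adjusted p = 5.71e-11) in wild-type and fell by -0.41 (SE 0.09, adjusted p = 0.000434) in CHOP-/- cells. Pias3, an inhibitor of STAT activity, fell by -1.41 (SE 0.11, adjusted p = 7.80e-10) and -0.80 (SE 0.11, adjusted p = 3.21e-06).

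Antiviral effectors moved in both directions. Of 43 listed genes 39 had a single-gene probe set, and 25 were tested. The others with a probe set, Mx1, Mx2, Oas2 and Oas3 among them, did not pass the filter. Their highest signals were 13.3 (Ifi27l2a) to 132 (Ifit1bl2), so the counts do not cover them. Of the 25 tested, 7 rose and 10 fell in wild-type cells and 5 rose and 12 fell in CHOP-/- cells (medians -0.02 and -0.25). Under centring on the tested genes 11 rose and 8 fell in wild-type cells (median 0.18) and 6 rose and 7 fell in CHOP-/- cells (median -0.11). Oasl1, of the oligoadenylate synthetase family, rose in wild-type cells from 61.9 to 430, by 2.68 (SE 0.28, limma adjusted p = 4.69e-08), and averaged 118 and 506 in CHOP-/- cells, a rise of 1.97. Ifitm2 and Ifitm3, similar proteins that block virus entry, fell in both genotypes, Ifitm2 by -1.08 (SE 0.05) and -0.84 (SE 0.05) and Ifitm3 by -0.96 (SE 0.05) and -0.76 (SE 0.05). Pml, which organises nuclear bodies, fell by -1.57 (SE 0.14, adjusted p = 3.22e-09) and -1.17 (SE 0.14, adjusted p = 2.50e-07). Responses differed for 11 of the 25, with a higher response in CHOP-/- cells for 5 and a lower one for 6, where 14.1% of all genes differed in each direction. Ifit1bl1, of which no test is read, is counted among the 10 that fell in wild-type cells and the 5 with a higher response. Rsad2 was above the array median on 5 arrays, 4 of them treated CHOP-/- ones, and Ifitm1 on 6, 4 of them untreated wild-type ones. These genes are no support for the counts. Parp12 and Parp9, ADP-ribosyltransferase family members, rose in wild-type cells by 0.30 and 0.32 and fell in CHOP-/- cells by -0.35 and -0.31 (differences -0.65 and -0.62, adjusted p = 9.97e-05 and 0.00325).

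For the attachment of ISG15 to proteins 3 genes were tested. Herc6, the main ISG15 ligase of the mouse, rose by 0.96 (SE 0.10, limma adjusted p = 5.71e-08) and 0.67 (SE 0.10, adjusted p = 7.98e-06). Trim25 averaged 1339 and 1436 in wild-type and 3381 and 2389 in CHOP-/- cells. It fell in the latter by -0.50 (SE 0.07, adjusted p = 2.13e-06), a difference between responses of -0.59 (SE 0.10, adjusted p = 0.000118). The activating enzyme gene Uba7 did not pass in either genotype, at 0.10 and -0.11, and was above the array median on only 5 of 16 arrays. The interferon gamma and GTPase list had 8 tested members, of which 2 rose and 0 fell in wild-type cells and 2 rose and 3 fell in CHOP-/- cells. In wild-type cells 1 rose under median centring over all probe sets, and 3 under centring on the tested genes. Gbp3 rose in wild-type cells from 36.1 to 69.8 but was above the array median on 0 wild-type arrays. Igtp fell in CHOP-/- cells from 71.9 to 16.3 and was above it on 1 untreated and 0 treated arrays there. Neither is support for these counts. The responses of 3 of them, Cxcl10, Irgm1 and Ifi47, were lower in CHOP-/- cells, where 14.1% of all genes were. Ifi47 was above the array median on the 4 untreated CHOP-/- arrays and on 0 others, so its fall there is no support for the count. The chemokine gene Cxcl10 rose by 3.04 (SE 0.13, limma adjusted p = 3.97e-14) and 2.06 (SE 0.13, adjusted p = 1.99e-11), with a difference of -0.98 (SE 0.18, adjusted p = 0.000357). It averaged 274 and 2309 in wild-type and 558 and 2368 in CHOP-/- cells, so the genotypes differed in the untreated level and were close after MG132. Irgm1, a GTPase of cell-autonomous immunity, averaged 482 and 463 in wild-type cells and 1375 and 717 in CHOP-/- cells, and fell in the latter by -0.92 (SE 0.09, adjusted p = 1.27e-08).

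**Figure D5:**
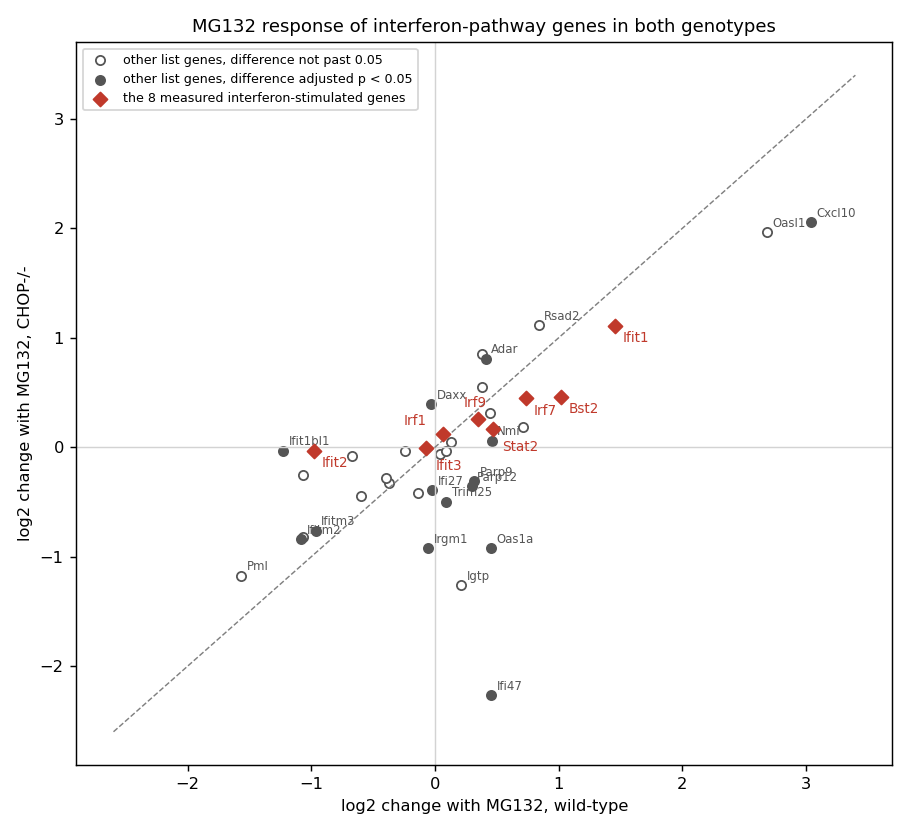
Log2 change with MG132 in wild-type (x axis) and CHOP-/- cells (y axis) for the tested antiviral effectors and interferon gamma and GTPase genes (grey, filled where the responses differed at an adjusted p under 0.05) and the 8 interferon-stimulated genes (red). Points on the dashed line changed equally. Ifit2 lies left at a CHOP-/- change of -0.03, and Cxcl10 and Oasl1 lie at the upper right. Ifit1bl1 is drawn, but no test of it is read.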

How the data were processed

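RNA of 16 plates was hybridised to Affymetrix mouse 3' expression arrays. The deposited values are linear signal intensities that the authors made with MAS5, per the submitters' processing notes. In every column the mean after trimming 2% at each end was the same, so the arrays had been scaled to a common level. There were no detection calls. Genes were named from the platform annotation. There were 45101 probe sets in the table: 64 controls, 9160 that named no gene, 932 several and 34945 a single one. Of these, 34741 matched RefSeq by gene identifier.

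Of several single-gene probe sets of a gene, the one with the highest mean was taken and kept when above the array's median on at least 4 of 16 arrays, as log2(signal + 16). Models with 1 coefficient per group over all 16 arrays were estimated over all genes by limma 3.58.1 under R 4.3.3 (12 residual degrees of freedom, mean-variance trend, two-sided, Benjamini-Hochberg over 11465 genes). A difference between responses is CHOP-/- minus wild-type. Scripts were tested on simulated data. The number of arrays limits the precision. Alternatives covered the added constant, scaling, filter, probe sets, groups fitted, variance trend, replicate block and leaving out each array.

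The 9 genes and all lists were chosen with earlier results of these data known. The text names all 9 genes, and of each list up to 4 genes with the smallest adjusted p per comparison, beside genes the lists are named for. Any other gene, such as the neighbours of the Ifit genes, was chosen after its values were seen.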

Additional observations from a re-analysis of the deposited data

Results flagged for a closer look

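For Ifit2 the responses to MG132 differed between the genotypes by 0.94 on the log2 scale (SE 0.09, limma adjusted p = 2.25e-07). All 4 treated wild-type arrays lay below all 4 untreated ones, and the groups overlapped in CHOP-/- cells. For Bst2 they differed by -0.56 (SE 0.16, limma adjusted p = 0.0114), with a rise in both genotypes that was smaller in CHOP-/- cells. No array stood apart from its group by Dixon's criterion in the 36 sets of 4 arrays that the 9 probe sets gave.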

How the results depend on the processing

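Over the 5 comparisons, the results past the threshold for Ifit1, Ifit2 and Ifit3 stayed past it in the same direction under all alternatives that held the gene, except Ifit1 between the treated genotypes. There 2 genes were higher in CHOP-/- cells, and 1 with an added constant of 1, without a filter, with genes above the median on all 16 arrays, or without suffixed probe sets, and 1 to 2 when an array was left out. Genes higher in untreated CHOP-/- cells numbered 2, and 1 under that stricter filter and without suffixed probe sets, settings that test only 6 and 5 of the genes. In the wild-type response 4 genes rose, 5 under quantile normalisation and 6 under centring on the tested genes. In the CHOP-/- response 2 genes rose, 4 under quantile normalisation or centring on the median of the tested genes (an alternative added after the data were seen), 1 under the stricter filter, and 2 to 3 with an array left out. Genes with a lower response in CHOP-/- cells numbered 1, 0 under median centring over all probe sets (Bst2) and 2 with the mean of all probe sets (Stat2).

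Changes near 0 turned their sign, none of them past the threshold. Under median centring over all probe sets, the CHOP-/- responses became 0.010 for Ifit2 and 0.037 for Ifit3, and the treated genotype differences 0.023 for Irf9 and 0.044 for Stat2. Under quantile normalisation these were 0.0068, 0.12, 0.0072 and 0.071. Centring on the tested genes gave 0.11 for Ifit2 and 0.14 for Ifit3 in CHOP-/- cells, 0.13 for Ifit3 in wild-type cells and -0.0039 for the difference of Irf1. With an array left out, values spanned -0.060 to 0.0084 for Ifit2 and -0.11 to 0.12 for Ifit3 in CHOP-/- cells, -0.19 to 0.023 for Ifit3 and -0.011 to 0.14 for Irf1 in wild-type cells, -0.022 to 0.13 for Irf1 and -0.043 to 0.19 for Ifit3 in the difference, -0.063 to 0.11 for Irf9 between untreated genotypes, and -0.13 to 0.050 for Stat2 and -0.12 to 0.0082 for Irf9 between treated genotypes. The causes were not tested. Centring on the tested genes shifted the all-gene median by 0.20 for wild-type and 0.14 for CHOP-/- responses, and the share of higher calls from 42.3% to 61.6% and from 41.1% to 55.8%. For the difference it was 50.1%, 69.8% under median centring over all probe sets (1650 higher and 713 lower, against 1621 and 1615) and 38.5% over tested genes. Between untreated genotypes it was 51.5%, and 61.1% over tested genes, and between treated genotypes 52.3%, and 63.5% over all probe sets.

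Same-numbered arrays of different groups correlated in their deviations at -0.07 to 0.16, above 0.1 in 5 of 24 pairs, so the numbers were not taken as a pairing. With the replicate block 5 genes rose in wild-type cells instead of 4, since Irf7 passed (0.74, limma adjusted p = 0.0347), and no other call of the 8 genes changed. No detection calls were available, so Ifit1 and Irf7, near the array median, have no stated limit of detection.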

Other observations

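Between the genotypes the pathway differed in several named genes without MG132. Of the 9 tested genes of the other STAT and IRF list, Irf2bp1 and Irf2bp2 included, 1 was higher and 6 were lower in CHOP-/- cells (median -0.50). Irf2bp2 was among the lower genes (-0.56), and Irf2bp1 did not pass (-0.22). Stat6, which acts in interleukin 4 signalling, was at -0.50 (SE 0.05, limma adjusted p = 8.48e-08) and Irf3 at -0.51 (SE 0.08, adjusted p = 3.05e-05). Stat5a, which has the close copy Stat5b, was at -1.58 (SE 0.10, adjusted p = 3.33e-11). The ligand gene Ifnz was lower by -0.84 (SE 0.15, adjusted p = 0.000102). In the other direction, the GTPase gene Irgm1 was higher by 1.48 (SE 0.09, adjusted p = 1.06e-11) and Cxcl10 by 1.02 (SE 0.13, adjusted p = 8.09e-07). Herc6 was higher by 1.49 (SE 0.10, adjusted p = 1.19e-10) and Trim25, a ubiquitin ligase that activates RIG-I, by 1.33 (SE 0.07, adjusted p = 1.11e-12). Of the 25 tested antiviral effectors 8 were higher and 6 lower (median 0.12), with Ifit1bl1, of which no test is read, among the lower ones. Of the 22 that were above the array median on an untreated array of both genotypes, 8 were higher and 5 lower. Among them, Adar, which edits adenosines in double-stranded RNA, was at 0.76 (SE 0.07, limma adjusted p = 1.06e-08) and Rtp4 at -1.32 (SE 0.16, adjusted p = 3.92e-07). Of 8 receptor and kinase genes 2 were higher and 3 lower, with Ifngr2 at 1.54 (SE 0.09, adjusted p = 3.99e-12) and Ifngr1, the ligand-binding subunit of the same receptor, at -0.68 (SE 0.06, adjusted p = 1.29e-08). Across all genes 28.6% were higher and 26.9% lower.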
